A study of Mus musculus with 48 samples.

Results

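The reporter elements described here lie upstream of Sox11, just past the end of Neurod2 and inside Rbfox3, 3 genes of neuronal differentiation. They are all the elements of the classes E14 and Shadow whose names carry mm10 coordinates in a window of 1020 kb around Sox11 on chromosome 12 or in windows of 35 kb around Neurod2 and 440 kb over Rbfox3 on chromosome 11. The windows hold 12 of 11709 elements, 6 of the 931 of class E14 and 6 of the 903 of class Shadow, with 2 coordinates at each locus and an E14 and a Shadow element at every coordinate. All 12 had a value in all 10 columns, so none was left out here for missing values. Elements removed before deposit, if any, cannot be seen. The loci were chosen by activity values of these same columns, so levels and differences below are a description and carry no test.

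Sox11 encodes a transcription factor of the SoxC group that promotes the expression of neuronal genes in newly born neurons. Neurod2 encodes a basic helix-loop-helix transcription factor of the differentiating cortical excitatory lineage, downstream of the proneural factors of progenitors. Rbfox3 encodes the splicing regulator NeuN, widely used as a marker of postmitotic neurons. In the developing cortex, neural stem cells give rise to intermediate progenitors, dividing cells that produce neurons, so the 3 genes belong to later steps than the stem cell itself.

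In a massively parallel reporter assay each short DNA element sits in a plasmid, and the RNA it drives is compared with the plasmid DNA that entered the cells. The plasmids were electroporated in utero into the somatosensory cortex of C57BL/6JRj (Haplotype H2b) embryos at E12, E13, E14, E15 or E16, and cells were taken 24 h later, at E13, E14, E15, E16 and E17. Neural stem cells (NSC, Pax6+) and intermediate progenitors (IPC, Tbr2+, the protein of Eomes) were sorted after fixation and staining, and the labels name no mutant allele and no treatment beyond the electroporation. Each of the 10 columns combines 3 biological samples (ages E14 and E15) or 2 (E13, E16 and E17), so the spread between samples is unknown and each age is 1 pooled value. Class E14 is a name for a set of elements and is not the age E14, and values listed in a row run in the order of age from E13 to E17. The table holds reporter values and no gene expression, so the sorted types were not checked against marker genes here. Reporter activity on a plasmid in electroporated cells is not the activity of the element in its chromosome, and nothing in the table links an element to the gene that it may regulate.

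The measurement error of a value cannot be read from pooled columns. The spread among scrambled controls lies between different control elements, so it is not the error of an element's value. It serves here only as a range for comparison. There were 996 scrambled controls, of which 976 to 993 had a value in a column. The central 95% of them spanned 0.11 to 13.3 times their median in NSC at E13, the widest column, and 0.36 to 2.64 times in NSC at E17, the narrowest. In IPC the upper limits, which 2.5% of the controls exceed, were 8.04, 3.03, 5.72, 7.71 and 4.53 times the median from E13 to E17. Activities are given as multiples of the scrambled median of the same column. Means over columns are on a log2 scale, log2 of the multiple plus 0.1, set to 0 at the scrambled median. The labels do not say what distinguishes a Shadow from an E14 element, and the DNA sequences of the elements were not analysed here.

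The elements lie at very different distances from their genes. Sox11 element 1 (mm10 chr12:27669624-27669889) and Sox11 element 2 (chr12:27838484-27838749) lie 327 and 496 kb upstream of the Sox11 start site, in an interval where Sox11 is the nearest protein-coding gene, and 169 kb apart. Neurod2 element 1 (chr11:98317219-98317484) and Neurod2 element 2 (chr11:98318521-98318786) lie 12.3 and 10.99 kb downstream of the Neurod2 start site, beyond the 3′ end of the gene by 7.93 and 6.63 kb, and their starts are 1.30 kb apart. Rbfox3 element 1 (chr11:118551192-118551457) and Rbfox3 element 2 (chr11:118745382-118745647) lie within the span of Rbfox3, 210 and 15.5 kb downstream of an internal start site of the RefSeq table. All 3 genes are on the minus strand, gene positions are from RefSeq on GRCm38.p6, the assembly behind mm10, and exons and introns were not distinguished.

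**Figure D1:**
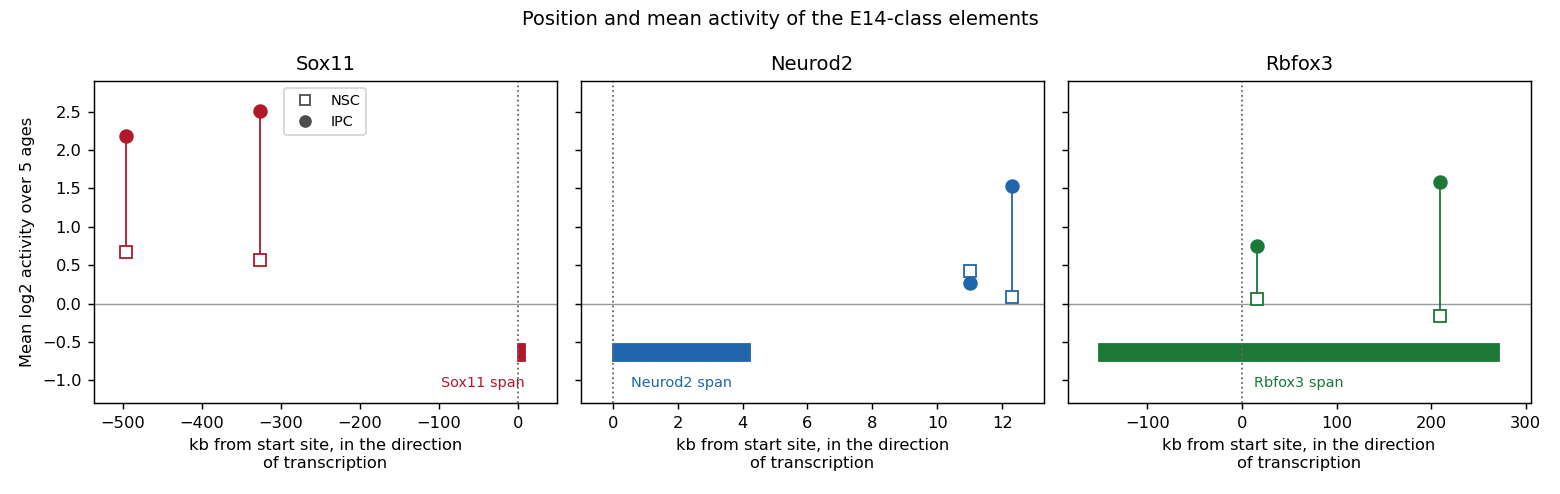
Mean log2 activity of the 6 E14-class elements over the 5 ages in NSC (open squares) and IPC (filled circles), plotted against the distance of the element's centre from the gene's start site in kb, with the gene's span as a bar. The Sox11 elements lie far upstream with IPC means of 2.51 and 2.19, the Neurod2 elements just past the gene's end at 1.53 and 0.27, and the Rbfox3 elements inside the gene at 1.59 and 0.75.

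At these loci mean activity above the scrambled limit was found in intermediate progenitors and not in neural stem cells. Averaged over the 5 ages, 4 of the 6 E14-class elements exceeded the upper scrambled limit of 1.06 in IPC: both Sox11 elements, Neurod2 element 1 and Rbfox3 element 1. None of the 6 exceeded the limit of 1.13 in NSC, and none of the 6 Shadow elements exceeded either limit. Over all elements of the classes, 21.3% of E14 elements exceeded the limit in IPC and 10.6% in NSC, and 6.53% and 2.87% of Shadow elements did. Since the loci were chosen from these values, the excess over these shares is no evidence about the loci.

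**Figure D2:**
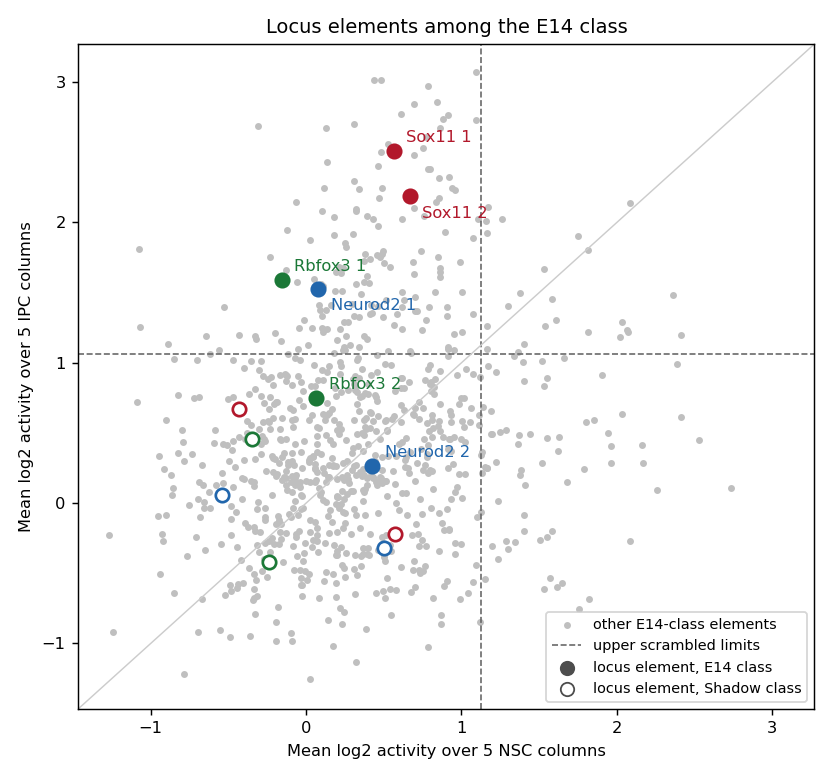
Mean log2 activity over the 5 NSC columns (horizontal) and the 5 IPC columns (vertical) of the other E14-class elements (grey) and of the locus elements, E14 class filled and Shadow class open, with dashed lines at the upper scrambled limits of 1.13 and 1.06. The 4 filled points above the horizontal line are Sox11 elements 1 and 2, Rbfox3 element 1 and Neurod2 element 1, and all locus elements lie left of the vertical line.

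Sox11 element 1 had the highest mean log2 activity of the set in IPC over the 5 ages, although Sox11 element 2 was the higher at E13, E14 and E15. In IPC element 1 stood at 4.60, 3.53, 5.50, 18.7 and 5.24 times the scrambled median from E13 to E17. In NSC the values were 3.94, 0.89, 2.05, 1.73 and 0.62 at the same ages. The IPC value was the higher at each of the 5 ages, by little at E13 and by most at E16, but the ranges of the cell types overlap because NSC at E13 exceeded IPC at E14. The IPC value passed the upper limit of its column at E14, E16 and E17, and at E13 and E15 it exceeded 93.1% and 97.1% of the controls. The mean log2 activity was 2.51 in IPC, above all 963 scrambled controls and 18th of 901 E14-class elements, against 0.56 in NSC (297th of 900). Sox11 element 2 had the higher IPC mean without E16 (2.73 against 2.11), with medians over columns (2.33 against 2.28) and by the mean of the scores in the authors' deposited table (11.4 against 9.18). The difference, IPC minus NSC, was 1.94, above the upper scrambled limit of 1.25 and 23rd of 889.

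Sox11 element 2 was above its limit in IPC at the 3 earlier ages and not at E16 or E17. Its IPC values from E13 to E17 were 15.1, 5.41, 14.5, 1.01 and 2.25 times the scrambled median. Those at E13, E14 and E15 exceeded 99.0%, 99.5% and 99.5% of the controls of their column, and the value at E16 was at the middle of the controls. In NSC it stood at 2.20, 1.15, 3.89, 0.92 and 1.28, with the highest value at E15, where IPC was high as well. IPC was the higher at 5 of 5 ages, but by only 0.12 on the log2 scale at E16. The mean log2 activity was 2.19 in IPC (33rd of 901) and 0.67 in NSC, and the difference of 1.52 was above the scrambled limit. It was no longer above the limit without E13 (1.22, limit 1.26), without E14 (1.37, limit 1.56) or without E15 (1.43, limit 1.49), or against the limit that 1% of controls exceed (1.54).

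The values of the Sox11 elements ran differently with age in IPC, a difference that was not tested. The least-squares slope was 0.27 per day for element 1, within the scrambled limits of -0.69 and 0.61, and -0.77 per day for element 2, under the lower limit. The slope of element 2 was -0.57 without E16 and -0.99 without E17, both within limits drawn anew for 4 ages. At E16, where element 1 reached its highest value, element 2 had its lowest. Over the 10 columns, in each of which both elements were measured in the same pooled samples, Pearson's r between the log2 values of the pair was 0.27.

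At Neurod2 the neighbouring elements differed. Neurod2 element 1, the farther from the start site, stood in IPC at 1.96, 3.46, 5.20, 2.64 and 2.92 times the scrambled median. In NSC it stood at 0.60, 0.87, 1.80, 1.12 and 1.26, so the lowest IPC value exceeded the highest NSC value and the cell types did not overlap. The difference in log2 activity lay between 1.15 and 1.88 at the 5 ages, the most even of the 6 E14-class elements. Its mean was 1.45, above the scrambled limit of 1.25 and 72nd of 889. Means were 1.53 in IPC (99th of 901) and 0.08 in NSC. Only at E14 did the IPC value pass the upper limit of its own column. At E14 and E15 it exceeded 98.2% and 97.0% of the controls, and at E13, E16 and E17 79.2%, 84.2% and 91.6%. Without E14 or E15 the mean difference was 1.34 or 1.44, under limits drawn anew of 1.56 and 1.49. It was also under the limit with medians over columns (1.482, limit 1.51), against the limit that 1% of controls exceed (1.54) and by the scores of the authors' deposited table (3.38, limit 4.57).

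Neurod2 element 2, which begins 1.30 kb closer to the gene, stood at 0.86 to 1.73 times the scrambled median in IPC and 0.52 to 2.28 times in NSC. No value passed a limit in either cell type. Its mean log2 activity was 0.27 in IPC (513th of 901) and 0.43 in NSC (370th of 900), so it was the only E14-class element of the 6 whose mean was lower in IPC. The difference of -0.16 is well inside the scrambled range. IPC was the higher at 2 of 5 ages.

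At Rbfox3 the IPC values of both elements differed between ages, each age being 1 pooled value. Rbfox3 element 1 stood in IPC at 10.3, 1.5, 1.13, 3.96 and 4.74 times the scrambled median. The values at E13 and E17 passed the limits of their columns, and those at E14 and E15 exceeded 79.9% and 57.1% of the controls. In NSC the values were 0.39, 1.80, 0.91, 0.56 and 1.40, and the value at E14 exceeded that in IPC. The mean log2 activity was 1.59 in IPC (92nd of 901) and -0.16 in NSC (718th of 900), the lowest NSC mean of the 6. The mean difference of 1.75 was above the scrambled limit and 42nd of 889, but it rested on E13: without that age it was 1.08, below the limit of 1.26.

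Rbfox3 element 2, the closer to the internal start site, had its higher IPC values at E13 and E14. From E13 to E17 it stood at 3.65, 3.60, 1.67, 0.49 and 1.40 times the scrambled median, and only the value at E14 passed its limit. In NSC it stood at 0.50, 0.55, 1.44, 2.15 and 1.40. The difference between cell types thus went from 2.65 and 2.5 at E13 and E14 to -1.94 at E16. The means, 0.75 in IPC and 0.07 in NSC, and the mean difference of 0.68 lay within the scrambled limits. The slope in IPC, -0.53 per day, had the same sign as that of Sox11 element 2 but lay within the limits.

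**Figure D3:**
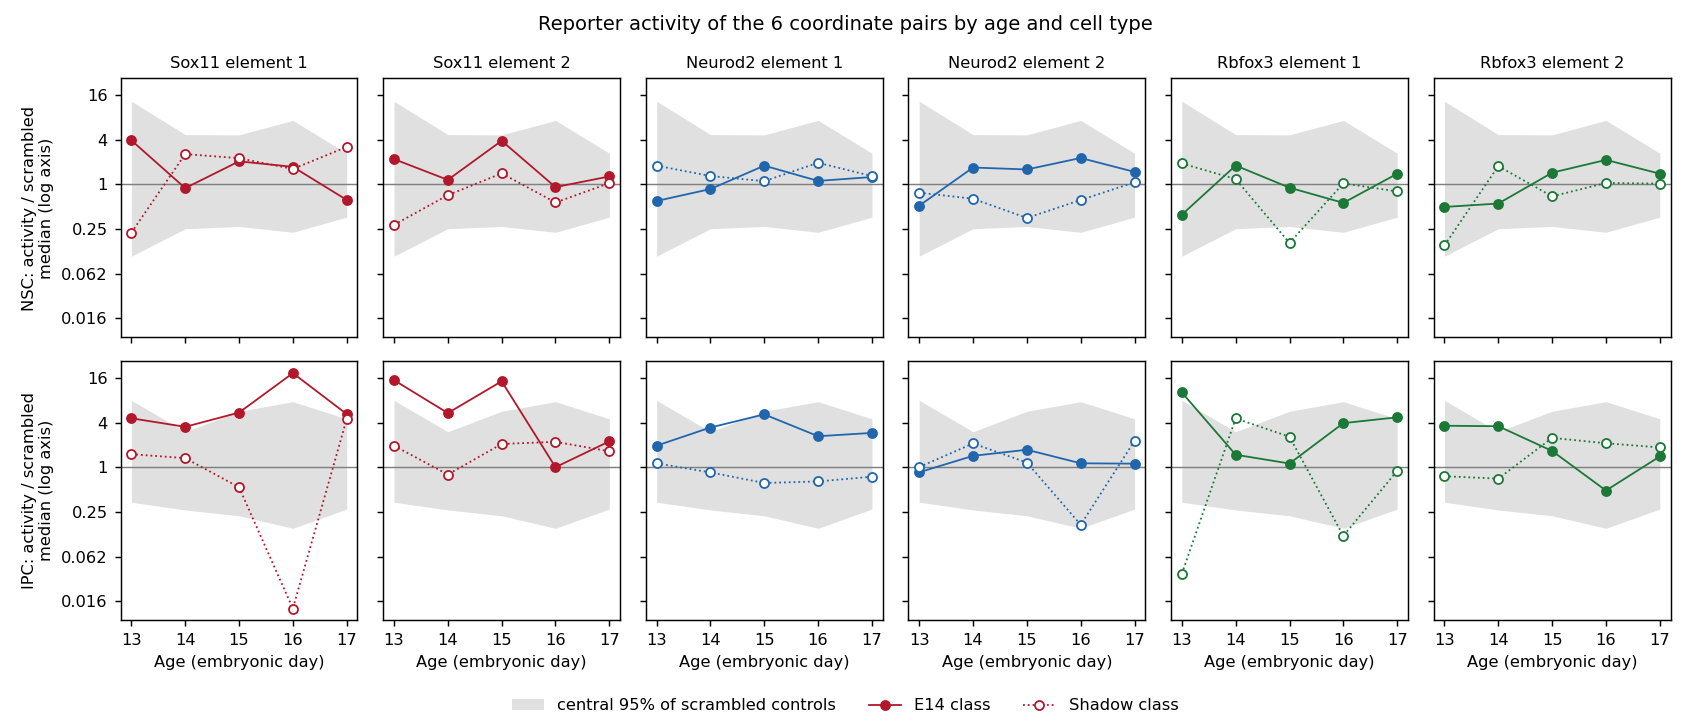
Activity of each element as a multiple of the scrambled median of its column (log axis) against age in embryonic days, NSC above and IPC below, E14 class filled and Shadow class open, with the central 95% of scrambled controls shaded. In NSC no E14-class element leaves the shaded band, and in IPC the Sox11 elements leave it most often, element 1 at E14, E16 and E17 and element 2 at E13, E14 and E15.

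Ordered by mean log2 activity in IPC, the E14-class elements were Sox11 element 1 (2.51), Sox11 element 2 (2.19), Rbfox3 element 1 (1.59), Neurod2 element 1 (1.53), Rbfox3 element 2 (0.75) and Neurod2 element 2 (0.27). The SD of such a mean among scrambled controls was 0.50, so 2 steps in this order exceed 1 such SD, from Sox11 element 2 to Rbfox3 element 1 and from Neurod2 element 1 to Rbfox3 element 2. The other neighbours differ by less. That SD belongs to 1 mean and not to a difference between 2 means, so this only compares sizes and is no test. In NSC the order ran from 0.67 for Sox11 element 2 to -0.16 for Rbfox3 element 1, and the range of all 6 was less than 2 scrambled SDs of 0.49. The mean difference of a locus, averaged over its 2 E14-class elements, was 1.73 at Sox11, 1.21 at Rbfox3 and 0.64 at Neurod2. The median over all 889 E14-class elements with a full set of values was 0.11.

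**Figure D4:**
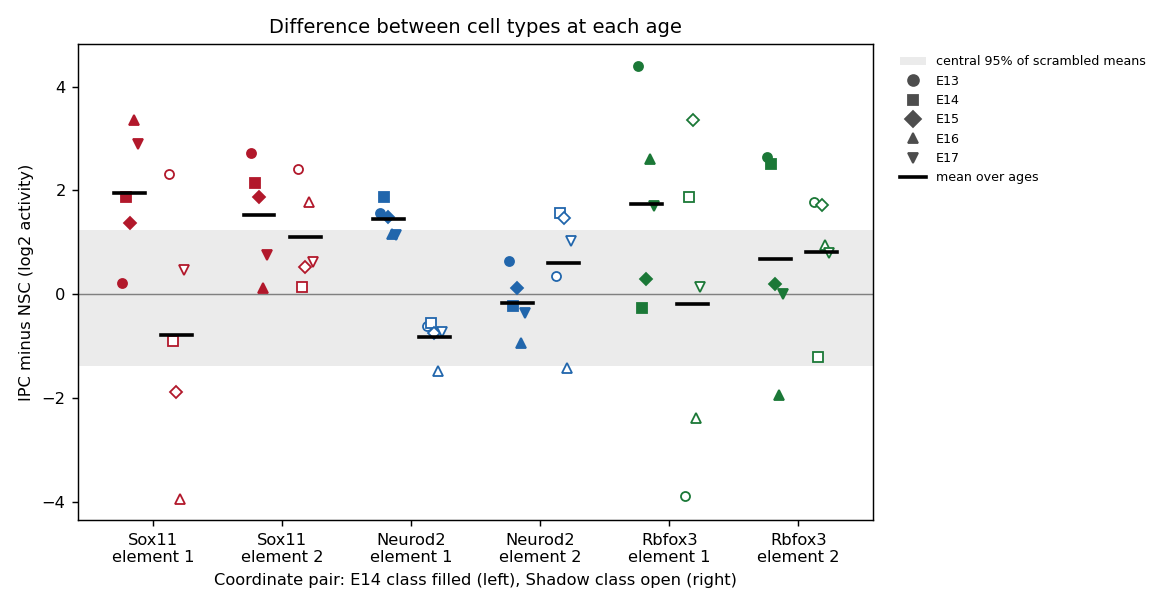
Difference in log2 activity, IPC minus NSC, at each age (symbols) and its mean over ages (black bar) for the 6 coordinate pairs, E14 class filled on the left and Shadow class open on the right, with the central 95% of mean differences of scrambled controls shaded. The 5 differences of Neurod2 element 1 lie between 1.15 and 1.88, while those of Rbfox3 element 1 run from -0.27 at E14 to 4.40 at E13.

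Of the 6 E14-class elements, 4 had a mean difference above the scrambled limit, and 12% of all E14-class elements did. IPC was above NSC at all 5 ages for 3 of the 6, the Sox11 pair and Neurod2 element 1, and for 9.22% of all E14-class elements. In the authors' deposited table, which scores elements against the scrambled controls column by column, a call is an adjusted p under 0.05. By this rule 4 of the 6 were called in at least 3 of 5 IPC columns, Sox11 element 1 in all 5 and Sox11 element 2, Neurod2 element 1 and Rbfox3 element 1 in 3 each. The share over all E14-class elements was 15.6%. A call did not require passing the upper scrambled limit of the column. Sox11 elements 1 and 2 passed the upper limit in 3 IPC columns each, Rbfox3 element 1 in 2 and Neurod2 element 1 in 1. Called values within the limits include Neurod2 element 1 in IPC at E17 and Sox11 element 1 in NSC at E13. They exceeded 91.6% and 87.8% of the controls of their columns. None of the 6 was called in 3 or more NSC columns, and the only NSC calls in the authors' deposited table were those of Sox11 element 1 at E13 and Sox11 element 2 at E15. These calls use the values that chose the loci, and nothing is read from them about the loci.

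By column, the authors' deposited table called 4, 4, 3, 2 and 3 of the 6 E14-class elements in IPC at E13, E14, E15, E16 and E17. The shares of all elements that are not scrambled called in these columns were 19.6%, 11.3%, 14.9%, 16.1% and 18.7%. In NSC it called 1 each at E13 and E15 and 0 at the other ages. The shares over all such elements there were 15.3%, 14.7%, 12.5%, 19.4% and 13%. Both sets of shares take all classes together, and calls within class E14 alone were not counted by column. In IPC at E14, 14.9% of E14-class elements passed the upper limit, more than the 11.3% of all elements called there. The highest score in the authors' deposited table among the 6 was that of Sox11 element 2 in IPC at E13, 24.1 in units of the scaled median absolute deviation of the controls, followed by the same element at E15 (21.9) and Sox11 element 1 at E16 (21.1).

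No Shadow element of these coordinates had a mean level or a mean difference above its scrambled limit. In single columns the authors' deposited table called 5 Shadow values. Of all elements that are not scrambled, 11.3% to 19.6% were called in a column, and the share over class Shadow was not counted. The 5 values were Sox11 element 1 in NSC at E14 and E17 and in IPC at E17, and Rbfox3 element 1 in IPC at E14 and E15. At Sox11 element 1 the Shadow element stood in IPC at 1.51, 1.33, 0.54, 0.0124 and 4.50 times the scrambled median. In NSC it stood at 0.22, 2.57, 2.26, 1.62 and 3.21, and the value at E17 passed the upper limit of its column, 2.64. Its means of 0.57 in NSC and -0.22 in IPC put the higher value in NSC, opposite to the E14 element. The E14 element was the higher in IPC at all 5 ages, by 2.73 on average, but the value of 0.0124 at E16 weighs heavily, and without E16 the difference was 1.56. In NSC the mean difference of -0.01 averaged unlike ages, with 3.64 at E13, -1.43 at E14 and -2.20 at E17, and it was -0.92 without E13 and 0.54 without E17.

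At Sox11 element 2 the Shadow element stood in IPC at 1.96, 0.80, 2.07, 2.21 and 1.65 times the scrambled median from E13 to E17, and in NSC at 0.29, 0.72, 1.41, 0.57 and 1.04. Like its E14 partner it was higher in IPC at 5 of 5 ages, with means of 0.67 and -0.43, and its difference of 1.10 exceeded 95.6% of the controls without passing the limit. The E14 element was the higher in 9 of 10 columns, all but IPC at E16. The advantage was 1.52 in IPC and 1.10 in NSC, and no other of the 6 pairs favoured the E14 element in more than 7 columns. Without E16 the advantage in IPC was 2.17.

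At Neurod2 element 1 the members of the pair went in opposite directions between cell types at every age. The Shadow element stood in IPC at 1.13, 0.85, 0.62, 0.65 and 0.75 times the scrambled median and in NSC at 1.79, 1.30, 1.11, 1.96 and 1.30. It was lower in IPC at all 5 ages, and the mean difference of -0.82 was inside the scrambled limits. The E14 element was the higher in 5 of 5 IPC columns, by 1.85, and in 1 of 5 NSC columns, where the mean difference was -0.42. With 1 age left out the IPC advantage was 1.59 to 2.12.

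The other 3 pairs were less even. At Neurod2 element 2 the E14 element was the higher in 4 of 5 NSC columns, by 0.97, and in 2 of 5 IPC columns, where the mean of 0.21 became -0.29 without E16. At Rbfox3 element 1 the Shadow element ranged in IPC from 0.0366 times the scrambled median at E13 to 4.58 at E14. It was above the E14 element at E14 and E15, where that element was lowest, and below it at the other ages. The E14 advantage there was 2.01 in IPC over 5 ages, 0.95 without E13 and 1.46 without E16, and 0.08 in NSC. At Rbfox3 element 2 the E14 element was the higher in IPC only at E13 and E14, and the means were 0.29 in IPC and 0.42 in NSC. The IPC mean turned to -0.16 without E13 and to -0.18 without E14, and it was 0.85 without E16.

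Averaged over its 2 pairs, the E14 advantage in IPC was 2.12 at Sox11, 1.03 at Neurod2 and 1.15 at Rbfox3, and in NSC 0.54, 0.27 and 0.25. All 6 pairs favoured the E14 element in the IPC mean, as did 62.2% of 759 pairs, and 4 of 6 in the NSC mean, as did 64.2%. The 759 are those of 844 E14 and Shadow pairs of the library in which both members had a value in all 10 columns. The IPC tally is not stable, since Neurod2 element 2 and Rbfox3 element 2 each favoured the E14 element in 2 of 5 IPC columns and turned sign with 1 age left out. Nor is the NSC tally stable. In NSC the mean of Rbfox3 element 1 turned to -0.04, -0.38 and -0.08 without E14, E15 and E17. That of Sox11 element 1 turned from -0.01 to 0.35 without E14 and to 0.54 without E17. The median over those 759 pairs was 0.29 in IPC and 0.27 in NSC, and over the 6 pairs 1.68 and 0.25. The E14 element was the higher in all 5 IPC columns in 2 of the 6 pairs, Sox11 element 1 and Neurod2 element 1. It was so in 91 of the 759 pairs. Part of the IPC advantage comes from low Shadow values. Of the 30 Shadow values of the loci in IPC, 3 fell below the limit that 2.5% of controls fall below, Sox11 element 1 at E16 and Rbfox3 element 1 at E13 and E16, against 3.20% of all Shadow values in IPC. Of the 30 E14-class values in IPC none fell below it and 10 exceeded the upper limit, against 9.82% of all E14-class values. Among the 30 Shadow values in IPC 1 exceeded the upper limit, Rbfox3 element 1 at E14, against 4.42% of all Shadow values in IPC.

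The windows have edges, and the nearest E14-class elements outside them were taken as a description. The closest, 22.1 kb outside the Neurod2 window and 37.6 kb from the gene, lies nearest to Cdk12, a transcription elongation kinase gene (chr11:98287597-98287862). It stood at 1.27 in IPC and 0.56 in NSC, with IPC the higher at 5 of 5 ages, below Neurod2 element 1 in IPC and above Neurod2 element 2. On the other side the next element, 3128 kb outside the window and nearest to Rnd2, lacked values and has no mean. The next elements on either side of the Sox11 and Rbfox3 windows were at least 938 kb outside them. Their IPC means were 1.57 within Mboat2, 1.29 near Septin9, 0.75 within Rptor and 0.08 within Myt1l. The Mboat2, Septin9 and Cdk12 elements passed the upper scrambled limit of 1.06 in IPC, and the Rptor and Myt1l elements did not. The differences of these elements around the Sox11 and Rbfox3 windows ranged from -0.02 to 1.46. Only the highest, that of the Rptor element, passed the limit of 1.25.

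For the E14-class element of highest mean at each locus, the 3 most similar of 883 other E14-class elements over the 10 columns were taken by Pearson's r of log2 values. Elements of a column were measured in the same pooled samples, and the highest of 883 correlations over 10 points is high by choice. Sox11 element 1 was followed most closely by elements within Zbtb20 (r = 0.90), which encodes a zinc finger repressor, within Cacna2d1 (0.86), a calcium channel subunit gene, and 24.7 kb from Rasgef1b (0.84). The values of the Rasgef1b element were similar in size as well (0.46 in NSC and 2.40 in IPC), whereas the Zbtb20 element was weaker (-0.23 and 0.76). Neurod2 element 1 was followed by elements within Cfdp1 (0.92) and Disc1 (0.90), which encodes a scaffold protein of neuronal development, and 35.3 kb from Nfatc2 (0.87), with IPC means between 1.57 and 1.91. Rbfox3 element 1 was followed by elements 6.83 kb from Gpr176 (0.92), 47.7 kb from Septin9 (0.92) and within Frem1 (0.91), with IPC means between 1.09 and 1.29.

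A list of 30 other genes of neuronal differentiation, among them Neurog2, Neurod1, Tbr1, Dcx and Tubb3, served as a comparison. Only 4 of the 30 were the nearest protein-coding gene of an E14-class element, with 5 elements in all. The E14 class thus says little about the rest of the pathway, and elements of other classes were not counted. In IPC 2 of the 5 exceeded the upper scrambled limit and in NSC 1 did, beside 21.3% and 10.6% of all E14-class elements. The element 3.51 kb from Nhlh1, a helix-loop-helix factor gene of newly formed neurons, stood at 2.02 in IPC and 1.11 in NSC. The element 7.84 kb from its paralogue Nhlh2 stood at 1.72 and 0.38, and its difference of 1.35 was above the scrambled limit, as were those of 12% of all E14-class elements. The elements within Gap43, the gene of a growth cone protein, stood apart from each other. One was at -0.31 in IPC and 1.20 in NSC, a difference of -1.51 below the lower limit of -1.39, and the other at 0.98 and 0.05. The element within Myt1l, a neuronal zinc finger factor gene, stood at 0.08 in IPC and 0.10 in NSC. The median of the 5 was 0.98 in IPC and 0.38 in NSC, beside 0.37 and 0.31 over all E14-class elements.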

How the data were processed

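Per the submitters' processing notes, cutadapt and the build mm10 were used. The aligner, the barcode counting and the tool behind the activity: not given in the sources used here. Per the file headers, the authors deposited 3 values per element and column: an activity score named statistic, a MAD score and a p-value. From the values, the authors' deposited score is the statistic minus the scrambled median over 1.4826 times the scrambled median absolute deviation, and the deposited p-value its upper-tail normal p, Benjamini-Hochberg adjusted in the column. Depth is unknown.

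Each statistic was expressed as a ratio to the median of the scrambled controls in that column. Log2 activity is log2(ratio + 0.1) minus its value at a ratio of 1, and understates differences of low values. Limits are the percentiles that 2.5% of scrambled controls fall below or exceed, among elements with a value in every column used. Ages were averaged. Nearest genes come from 21900 protein-coding spans of RefSeq on GRCm38.p6. Start sites were read from the RefSeq promoter table of that build.

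The members and lists were chosen with earlier results of these data known. Described in full were, at each locus, the E14-class element of highest mean, that of largest difference and every one above a limit, with their Shadow partners, and similar elements were named by correlation. The other elements of the windows were added. The planned motif search was not run, since element sequences were not analysed here. Scripts (Python 3.11.15, pandas 2.3.3) were tested on simulated data. Alternatives were other pseudocounts, centring, limits and summaries, the authors' score, and each age left out.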

Additional observations from a re-analysis of the deposited data

Results flagged for a closer look

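At the coordinate of Neurod2 element 1 the difference between cell types had opposite signs in the pair at every age. The E14-class element was higher in IPC at 5 of 5 ages, by 1.45 in mean log2 activity, and the Shadow element was lower in IPC at 5 of 5 ages, with a mean difference of -0.82. The difference between the members was not tested, since every age is 1 pooled value and the locus was chosen with these values known. Of the 6 pairs, no other had opposite signs at all 5 ages. The share of such pairs over the whole library was not counted, so nothing is read from this about the locus.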

How the results depend on the processing

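The number of E14-class elements above the upper limit in IPC was 4 under every alternative except the authors' score, where it was 3 because Neurod2 element 1 fell inside. Among Shadow elements the number above the NSC limit was 1 in place of 0 without age E13 and with medians over columns, the Shadow element of Sox11 element 1 in both. The mean difference at the Sox11 locus was 1.53 with a pseudocount of 0.5. The slope of the Shadow element of Rbfox3 element 1 in IPC turned to -1.03 without age E13. The difference of Neurod2 element 1 was on the same side of the limit in 8 of 13 alternatives, that of Sox11 element 2 in 9, of Rbfox3 element 1 in 12 and of Sox11 element 1 in 13. No paired analysis was possible because each deposited column combines the biological samples of a cell type and age, which also prevents leaving out a sample. Depth per element is unknown, so counting error cannot be given.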
